A study of Caenorhabditis elegans with 12 samples.

Results

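The 10 genes described here act in the release and transport of synaptic vesicles in the nematode Caenorhabditis elegans. Chemical synapses release transmitter when vesicles that have been carried along the axon dock at the active zone, are primed, and fuse with the plasma membrane through the SNARE proteins. The genes encode the core of that process, and many were first found there because mutants were uncoordinated (unc) or resistant to inhibitors of cholinesterase (ric). Neurons differentiate during embryogenesis, so that late-stage embryos already transcribe synaptic genes. The 10 genes were taken by symbol in the WBcel235 annotation: the priming and active zone genes unc-13, unc-10 and rab-3, the SNARE genes unc-64, ric-4 and snb-1 with their partner unc-18, the calcium sensor snt-1, the dense core vesicle gene unc-31, and the vesicle motor gene unc-104. All 10 were found among the 46904 genes of the count table, and all 10 were among the 14640 genes past the filter on low values (a normalised read count of at least 10 in at least 2 libraries).

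Messenger RNA was measured in whole late-stage embryos of 6 genotypes with 2 libraries each: N2, the wild-type strain; hpl-2, a mutant of a homolog of heterochromatin protein HP1; hpl-2 I158A, a strain with a point mutation in that protein; lin-61, a mutant of an MBT-repeat protein that binds methylated histone H3; the double mutant lin-61 hpl-2; and the strain met-2 set-25 set-32, called the methyltransferase mutant here after the histone methyltransferase genes it is mutated in. No source used here gives the alleles beyond these names or the age in hours, and no group received a treatment that the labels name. Nothing in the labels says that both libraries of a genotype came from separate cultures, so p-values here reflect only how far these samples spread, and that spread may be technical. By its title, the series addresses how heterochromatin undergoes a phase transition, and the strains compared lack or alter proteins of heterochromatin.

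Reads assigned to genes numbered 1593546 to 2533102 per library, except replicate 2 of the methyltransferase mutant with 10243076. This deep library differed from the rest: its correlation with its replicate across genes was 0.838, against 0.925 to 0.967 between the replicates of the other genotypes, so counts of members are also given without it. The 10 genes took 0.0257% to 0.0543% of the reads of a library, with a lowest count of 2 reads for snt-1. Reads of the hpl-2 gene were low in the strains labelled hpl-2 and lin-61 hpl-2 (30.9 to 49.8 normalised counts, against 242 to 304 in N2) and not in hpl-2 I158A (244 and 283). The lin-61 gene was at 5.45 to 13.6 in both strains that carry its mutation and at 41.4 and 91.9 for N2. In the methyltransferase mutant, reads of met-2 stood at 44.3 and 77 (N2 266 and 267), set-25 at 99.7 and 159 (N2 406 and 417) and set-32 at 2.89 and 6.93 (N2 14 and 15.8). The kit was directional, per the labels' protocols, but how strand was treated in counting is not given in the sources used here. Per kilobase, noncoding genes opposite coding exons had more reads than the coding gene itself (median log2 ratio 5.81 to 6.4 in 11 libraries, 3.75 in the deep one), so reads of a gene and of a gene on the opposite strand cannot be told apart with certainty. For noncoding genes opposite introns the median was 1.22 to 2.11 in those 11 libraries and -0.784 in the deep one, which thus differed in this ratio too. Whether reads were counted on the opposite strand was not tested, and it would bear on all 10 genes. Among the members, exons of 2 overlapped an exon of another gene. The end of unc-64 shares 64 bases, 2.49% of its exon length, with set-25 on the opposite strand. For rab-3 the overlaps were 25 bases (1.71%) with damt-1 and 85 bases (5.82%) with the noncoding gene C18A3.16, both on the opposite strand, and 80 bases (5.48%) with C18A3.18 on its own strand, which had no reads. The genes inside unc-10 (T10A3.2 and T10A3.5), unc-31 (F07C6.5, ZK897.3, ZK897.4, ZK897.8 and ZK897.9), unc-104 (C52E12.8 and 4 further tRNA genes or pseudogenes), ric-4 (21ur-13262 and Y22F5A.10) and rab-3 (C18A3.13) all lay in introns.

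The strain in which these genes differed from N2 past the threshold was hpl-2 I158A, where genes of priming, of vesicle transport and of 1 SNARE were low. In hpl-2 I158A against N2, 4 of the 10 genes fell (unc-13, unc-10, unc-104 and ric-4) and none rose at a limma adjusted p under 0.05, where 4.0% of all 14640 genes tested were called and 3.09% were called lower. The median log2 fold change of the 10 genes was -1.43, beside 0.03 over all genes tested. Without the deep library the count was 7 lower, with unc-64, unc-31 and snt-1 added, while the share of all genes called lower rose to 12.9%. The same 7 were lower without the other library of the methyltransferase mutant (12.8% of all genes were). Without either library of N2 or of hpl-2 I158A no member passed, and 0.0205% to 1.43% of all genes were called lower in those 4 fits. Without any 1 library of hpl-2, lin-61 or lin-61 hpl-2 only unc-13 did, beside 1.15% to 1.51% of all genes. Both hpl-2 I158A libraries were below the other 10 libraries for 6 of the members (unc-13, unc-10, unc-31, unc-104, ric-4 and snt-1), as for 9.02% of all genes tested, and above them for 1 member, snb-1, as for 9.11%. Since embryos were measured whole, fewer cells that express a gene and less RNA per cell cannot be told apart.

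**Figure D1:**
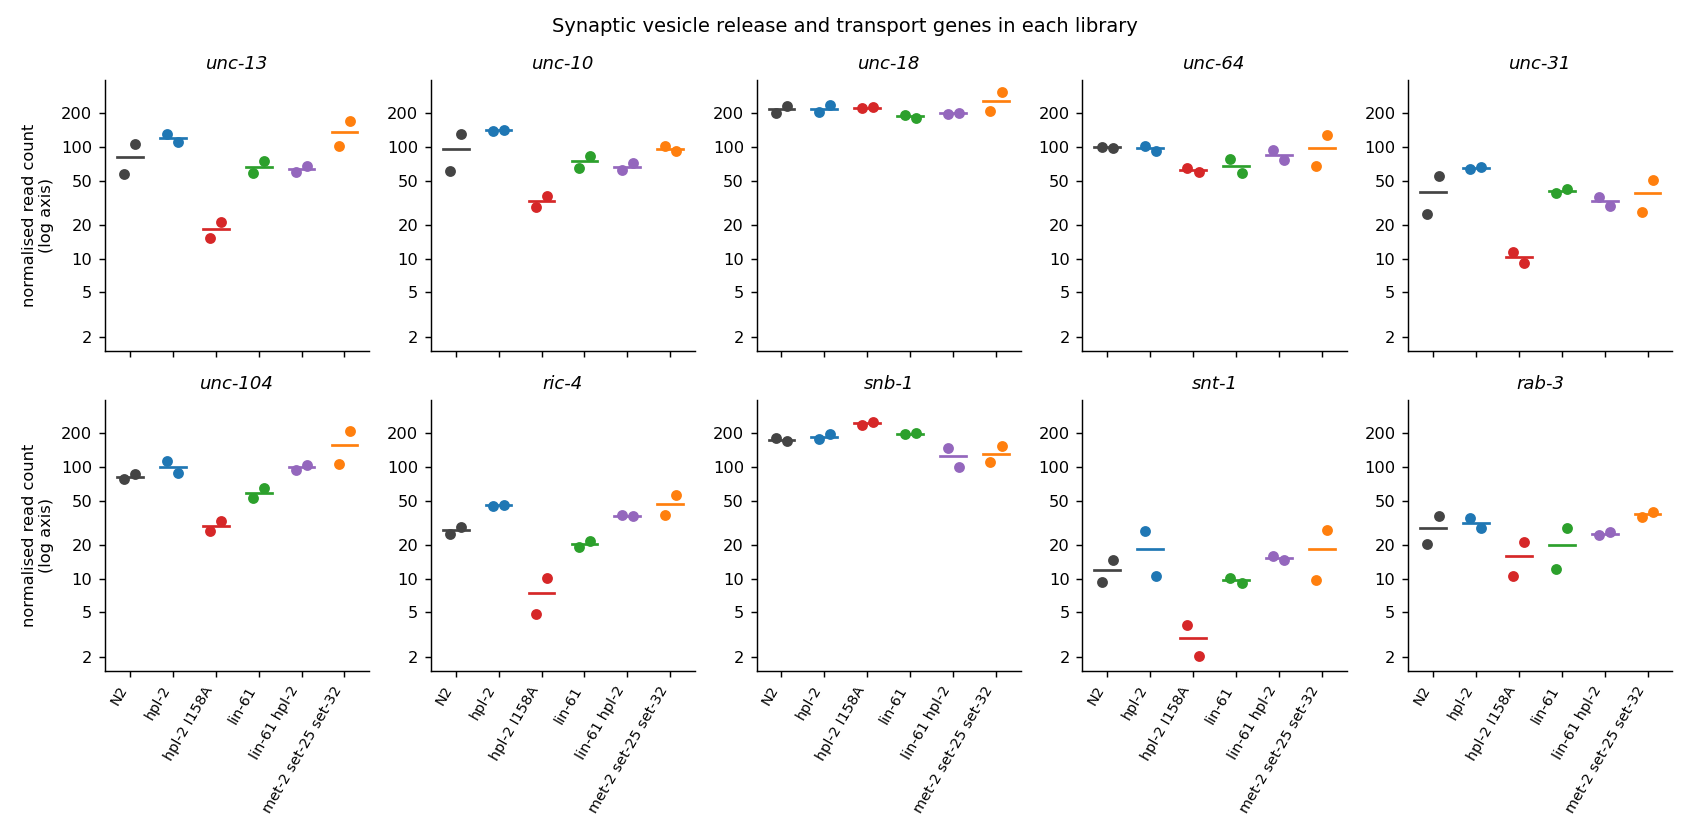
Normalised read counts of the 10 genes (log axis) in each of the 12 libraries; points are libraries, short lines the means of the 2 libraries of a genotype, and each panel is 1 gene. Both hpl-2 I158A libraries (red) are the lowest of the 12 for unc-13, unc-10, unc-31, unc-104, ric-4 and snt-1 and the highest for snb-1, with unc-13 at 15.4 and 21.4 there and 57.6 to 171.3 elsewhere.

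UNC-13 is the priming factor that opens syntaxin for SNARE assembly, and its gene had the largest fall of the 10 against N2. The gene (WBGene00006752, chromosome I, 7422785 to 7454116, all positions on WBcel235) was at 57.6 and 106.0 normalised counts in N2, 129.4 and 110.7 for hpl-2, 15.4 and 21.4 for hpl-2 I158A, 58.2 and 75.4 for lin-61, 59.3 and 67.9 for lin-61 hpl-2, and 101.2 and 171.3 for the methyltransferase mutant. The hpl-2 I158A libraries lay below all the others with a gap, and the remaining groups overlapped or adjoined each other. From 81.8 ± 34.2 in N2 to 18.4 ± 4.23 (SD, n = 2), the log2 fold change was -2.05 (SE 0.366, limma adjusted p = 0.0166), a 4.13-fold lower level. In the order of the genotype means, hpl-2 I158A and its next neighbour lin-61 hpl-2 differed (limma adjusted p = 0.0182). This was the single pair of neighbours, over the 10 genes, whose difference passed the test. The authors' deposited table gives -2.16 for unc-13 in hpl-2 I158A against N2, with an adjusted p of 0.000417.

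UNC-10 is RIM, the active zone scaffold that binds RAB-3 and UNC-13. Its gene (WBGene00006750, chromosome X, 7272317 to 7280322) stood at 60.7 and 130.4 for N2, 139.9 and 141.7 for hpl-2, 28.9 and 36.7 for hpl-2 I158A, 65.4 and 83.6 for lin-61, 61.8 and 71.3 for lin-61 hpl-2, and 101.2 and 92.1 for the methyltransferase mutant. Both hpl-2 libraries were the highest of the 12 and both hpl-2 I158A libraries the lowest, while the N2 libraries spread across most of the range between them. It fell from 95.6 ± 49.2 in N2 to 32.8 ± 5.50 (SD, n = 2), a log2 fold change of -1.42 (SE 0.344, limma adjusted p = 0.0470). RAB-3, the vesicle GTPase that UNC-10 binds, is encoded by a gene (WBGene00004267, chromosome II, 5721767 to 5727853) with counts of 20.2 and 36.6 for N2, 35.2 and 28.3 for hpl-2, 10.6 and 21.4 for hpl-2 I158A, 12.3 and 28.2 for lin-61, 24.7 and 26 for lin-61 hpl-2, and 36 and 39.8 for the methyltransferase mutant. The hpl-2 I158A and lin-61 libraries overlapped each other and those of N2. The log2 fold change of rab-3 against N2 was -0.81 (SE 0.492, limma adjusted p = 0.398), and no comparison called this gene.

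Of the 3 neuronal SNARE genes only ric-4 was called in hpl-2 I158A against N2, and the 3 were not tested against each other. SNAP-25 is encoded by ric-4 (WBGene00004364, chromosome V, 10261131 to 10270314), which was at 24.9 and 29.2 for N2, 44.7 and 46.1 for hpl-2, 4.8 and 10.2 for hpl-2 I158A, 19.4 and 21.8 for lin-61, 37.1 and 36.2 for lin-61 hpl-2, and 37.4 and 55.6 for the methyltransferase mutant. Replicates lay close together outside hpl-2 I158A and the methyltransferase mutant, and the hpl-2 I158A values rested on 5 and 10 reads. From 27.1 ± 3.06 in N2 to 7.5 ± 3.8 (SD, n = 2), ric-4 fell with a log2 fold change of -1.80 (SE 0.399, limma adjusted p = 0.0375). Syntaxin, the target-membrane SNARE that UNC-13 and UNC-18 both handle, is encoded by unc-64 (WBGene00006798, chromosome III, 13277258 to 13283887). It was at 99.7 and 98.7 for N2, 102.8 and 92.1 for hpl-2, 64.5 and 60.1 for hpl-2 I158A, 77.6 and 58.2 for lin-61, 93.9 and 75.8 for lin-61 hpl-2, and 67.9 and 129.0 for the methyltransferase mutant. Both hpl-2 I158A libraries were below both N2 libraries, as for 28.8% of all genes, but inside the range of lin-61, and the log2 fold change of -0.66 (SE 0.316, limma adjusted p = 0.275) did not pass.

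Synaptobrevin, the SNARE on the vesicle, is encoded by snb-1 (WBGene00004897, chromosome V, 6655562 to 6656501), with 180.7 and 169.4 for N2, 178.0 and 196.6 for hpl-2, 238.9 and 254.7 for hpl-2 I158A, 198.1 and 199.9 for lin-61, 148.3 and 100.7 for lin-61 hpl-2, and 110.9 and 152.6 for the methyltransferase mutant. The hpl-2 I158A libraries were the highest here, and those of lin-61 hpl-2 and the methyltransferase mutant lay below all of the rest. Against N2 the log2 fold change was 0.49 (SE 0.242, limma adjusted p = 0.289). UNC-18, the Sec1/Munc18 protein that binds syntaxin, is encoded by unc-18 (WBGene00006757, chromosome X, 7682896 to 7686037), and it varied least of the 10. Its counts were 200.9 and 232.7 for N2, 205.6 and 235.6 for hpl-2, 222.5 and 228.2 for hpl-2 I158A, 195.0 and 179.9 for lin-61, 198.9 and 201.4 for lin-61 hpl-2, and 212.0 and 308.3 for the methyltransferase mutant. Both lin-61 libraries were below the other 10, as for 1.03% of all genes. Both lin-61 hpl-2 libraries were below those of hpl-2, hpl-2 I158A and the methyltransferase mutant but overlapped those of N2, and the remaining 4 genotypes overlapped. The log2 difference of unc-18 between hpl-2 I158A and N2 was 0.06, with a 95% interval from -0.43 to 0.54.

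SNT-1 is synaptotagmin, the calcium sensor for fast release, and its gene (WBGene00004921, chromosome II, 6810963 to 6816433) had the lowest counts. They were 9.3 and 14.6 for N2, 26.6 and 10.6 for hpl-2, 3.9 and 2.0 for hpl-2 I158A, 10.2 and 9.1 for lin-61, 16.1 and 14.7 for lin-61 hpl-2, and 9.7 and 27.1 for the methyltransferase mutant. The hpl-2 I158A libraries held 4 and 2 reads and lay below the rest, with no gap larger than the spread inside hpl-2 or the methyltransferase mutant. A log2 fold change of -1.73 (SE 0.617, limma adjusted p = 0.148) against N2 was not called at this depth.

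UNC-31 is CAPS, which acts in the release of dense core vesicles that carry neuropeptides. The unc-31 gene (WBGene00006767, chromosome IV, 12773867 to 12788354) was at 24.9 and 54.8 for N2, 63.8 and 65.5 for hpl-2, 11.6 and 9.2 for hpl-2 I158A, 38.8 and 41.8 for lin-61, 35.8 and 29.4 for lin-61 hpl-2, and 26.3 and 50.5 for the methyltransferase mutant. As for unc-10, the hpl-2 libraries were the highest of the 12 and the hpl-2 I158A libraries the lowest, and 5.28% of all genes had both hpl-2 libraries above the other 10. The log2 fold change of unc-31 in hpl-2 I158A against N2 was -1.75 (SE 0.436, limma adjusted p = 0.0512), just outside the threshold. The authors' deposited table gives -1.96 for it with an adjusted p of 0.0138, and calls 5 of the 10 genes lower there: the 4 called by limma and unc-31. Of the 13874 genes with an adjusted p in the authors' deposited table, 5.9% are lower at under 0.05.

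UNC-104 is the kinesin of the KIF1A family that carries synaptic and dense core vesicle precursors to the axon ending. Its gene (WBGene00006831, chromosome II, 6994987 to 7010625) was at 77.9 and 86.5 for N2, 112.3 and 87.7 for hpl-2, 27 and 32.6 for hpl-2 I158A, 53.1 and 64.5 for lin-61, 93.9 and 104.1 for lin-61 hpl-2, and 105.3 and 211.1 for the methyltransferase mutant. The hpl-2 I158A libraries were lowest, those of lin-61 next, and the other 4 genotypes overlapped or adjoined. From 82.2 ± 6.11 in N2 to 29.8 ± 3.98 (SD, n = 2), unc-104 fell with a log2 fold change of -1.44 (SE 0.331, limma adjusted p = 0.0417).

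Per kilobase of exon, the 10 genes were not expressed at like levels. On the scale of normalised counts per kilobase in N2, snb-1 was highest at 216.9 ± 9.91, followed by unc-18 at 81.4 ± 8.45 and unc-64 at 38.6 ± 0.272 (SD, n = 2). The lower group ran from ric-4 at 21.9 ± 2.47 down to unc-31 at 7.61 ± 4.04 and snt-1 at 6.23 ± 1.94, with unc-13 at 11.9 ± 4.98. In hpl-2 I158A the same 3 genes led, snb-1 at 305.8 ± 13.9, unc-18 at 84.6 ± 1.52 and unc-64 at 24.3 ± 1.22. The other 7 lay between snt-1 at 1.53 ± 0.667 and rab-3 at 11 ± 5.23 normalised counts per kilobase. None of the 3 genes that led in N2 was among the 4 called.

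The other mutants did not move these genes past the threshold against N2. In hpl-2, lin-61, lin-61 hpl-2 and the methyltransferase mutant no member was called by limma, edgeR or DESeq2, with or without the deep library in the limma fit, where 0.608%, 0.0956%, 0.273% and 0.328% of all genes were called. An unadjusted limma p under 0.05 was reached by 0, 0, 0 and 1 of the 10 genes, and by 2193, 1391, 1397 and 2191 of the 14640 genes tested. The 1 gene was unc-104 in the methyltransferase mutant (log2 fold change 0.85, SE 0.331, limma adjusted p = 0.280). The median log2 fold changes of the members were 0.38 in hpl-2, -0.26 in lin-61, -0.15 in lin-61 hpl-2 and 0.34 for the methyltransferase mutant, beside 0.03, 0.02, 0.01 and -0.01 over all genes. In hpl-2, 5 members (unc-13, unc-10, unc-31, unc-104 and ric-4) had both libraries above both N2 libraries, as had 27.5% of all genes. Their log2 fold changes there ran from 0.27 for unc-104 to 0.79 for unc-31, with standard errors of 0.331 and 0.436. Without replicate 1 of the methyltransferase mutant, a fit in which the deep library stands alone for its genotype and is assumed to vary like the others, unc-13, unc-18 and unc-104 were called higher than N2, but so were 12.7% of all genes. The test of the lin-61 by hpl-2 interaction called no member (1.73% of all genes were called, and 1 member had an unadjusted p under 0.05, as had 18.5% of all genes).

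**Figure D2:**
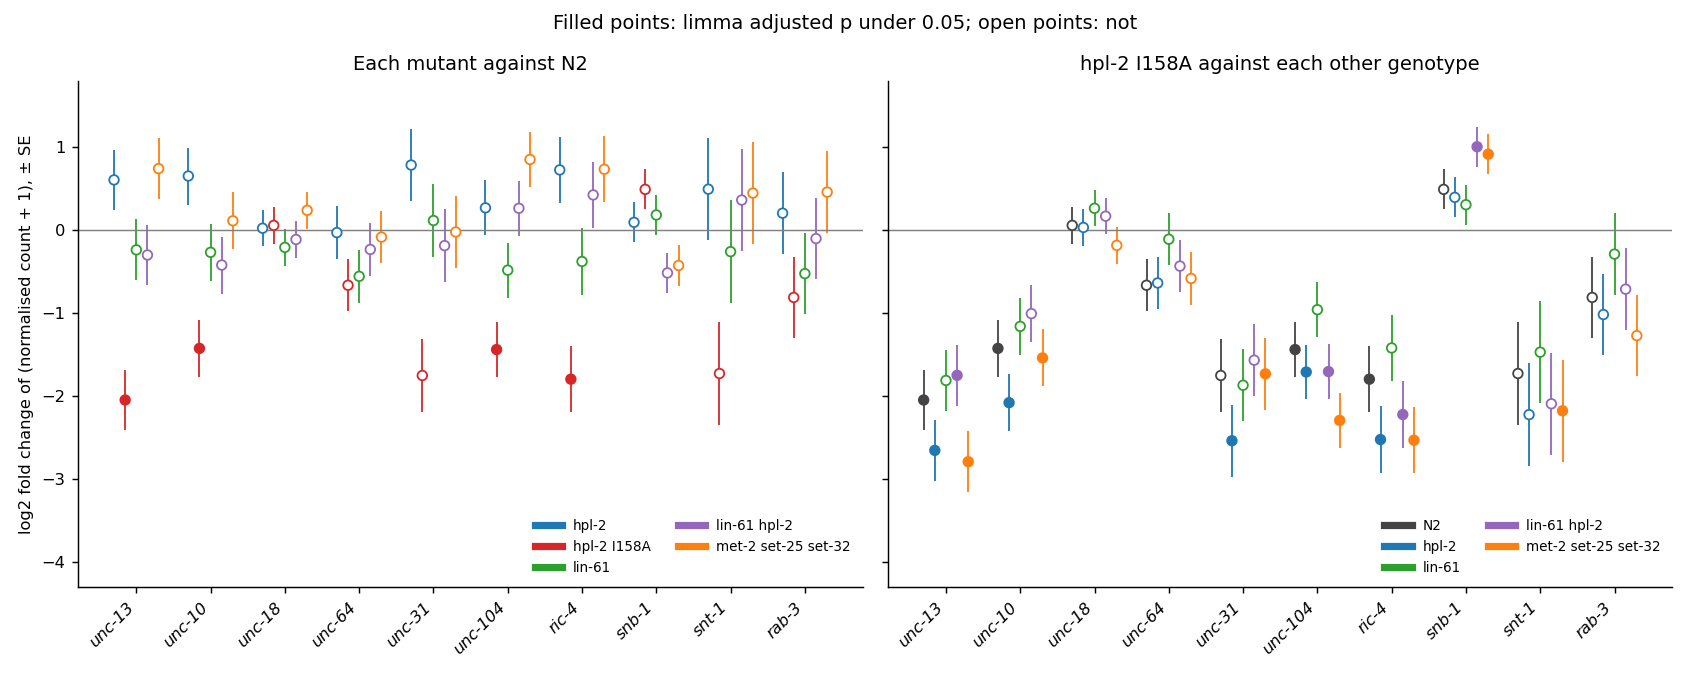
Log2 fold changes of normalised count + 1 (± SE of the limma fit) for the 10 genes, in each mutant against N2 (left) and in hpl-2 I158A against each of the other 5 genotypes (right). Filled points passed a limma adjusted p of 0.05; on the left they all belong to hpl-2 I158A, and on the right unc-13, unc-104 and ric-4 pass against 4 of the 5 genotypes, with lin-61 the exception.

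The strain with the point mutation also differed from the hpl-2 mutant. In hpl-2 I158A against hpl-2, 5 of the 10 genes fell and none rose, where 4.25% of all genes were called lower and 3.59% higher. The log2 fold changes were -2.65 for unc-13 (SE 0.366, limma adjusted p = 0.00934), -2.54 for unc-31 (SE 0.436, limma adjusted p = 0.0140) and -2.52 for ric-4 (SE 0.399, limma adjusted p = 0.0110). They were -2.08 for unc-10 (limma adjusted p = 0.0122) and -1.71 for unc-104 (limma adjusted p = 0.0194). For 8 members both hpl-2 I158A libraries were below both hpl-2 libraries, as for 37.2% of all genes. The exceptions were snb-1, which was above, and unc-18, which overlapped. Without the deep library 7 members were lower, with unc-64 and snt-1 added, beside 15.5% of all genes. Without any 1 library of hpl-2 or hpl-2 I158A the count was 0, and 1 to 3 of the 14640 genes were called lower.

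Against the methyltransferase mutant, 6 members were lower in hpl-2 I158A (6.89% of all genes were) and snb-1 was higher (4.21% were). The lower ones ran from unc-13, with a log2 fold change of -2.79 (SE 0.366, limma adjusted p = 0.00147), and ric-4, with -2.53, to unc-10 with -1.54, and included unc-104, unc-31 and snt-1. For snb-1 the log2 fold change was 0.92 (SE 0.242, limma adjusted p = 0.0354). Without the deep library 5 were lower, snt-1 no longer among them, and snb-1 was still higher, while the shares of all genes called rose to 13.1% lower and 10.7% higher. Without either hpl-2 I158A library 3 members were called lower, beside 2.03% and 2.42% of all genes.

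Against lin-61 hpl-2, unc-13, unc-104 and ric-4 were lower (5.79% of all genes were) and snb-1 higher (2.24% were). The log2 fold changes were -2.22 for ric-4 (SE 0.399, limma adjusted p = 0.00972), -1.75 for unc-13, -1.70 for unc-104 and 1.01 for snb-1 (SE 0.242, limma adjusted p = 0.0305). Without the deep library unc-10, unc-31 and snt-1 joined the lower set, to which 2348 of the 14640 genes tested then belonged. Without either library of lin-61 hpl-2 none was called, and without 1 or the other hpl-2 I158A library 0 or 1, with 0.656% to 1.35% of all genes called lower in these 4 fits. Against lin-61 no member passed with all 12 libraries, where 0.225% of all genes were called. There 6 members had an unadjusted limma p under 0.05, as had 14.7% of all genes. For the same pair edgeR called 0 members (0.157% of all genes) and DESeq2 called 2, unc-13 and unc-31 (2.44% of the genes to which it gave an adjusted p). The smallest adjusted p was that of unc-13 (log2 fold change -1.81, SE 0.366, limma adjusted p = 0.0830), and without the deep library 5 members were lower (unc-13, unc-10, unc-31, unc-104 and ric-4), as were 9.34% of all genes. All 5 comparisons with hpl-2 I158A share its libraries, so they are not independent of each other. In the pairs among the other 4 mutants no member was called: 0.041% of all genes were in lin-61 against hpl-2, 0.13% in lin-61 hpl-2 against hpl-2, 0.0273% in lin-61 hpl-2 against lin-61, and 2.5%, 1.84% and 0.232% in the methyltransferase mutant against hpl-2, lin-61 and the double mutant. Members with an unadjusted limma p under 0.05 numbered 4, 4, 2, 0, 4 and 1 in these pairs, in that order, where 5.85%, 18.5%, 12.6%, 23.6%, 19.9% and 11.4% of all genes had one. The authors' deposited table calls 1 member higher in the methyltransferase mutant than in lin-61, as it does 2.96% of its genes with an adjusted p.

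The share of mitochondrial reads moved with some of these comparisons. It was 0.327% and 0.344% in N2 and 0.314% and 0.326% in lin-61 hpl-2, against 0.103% and 0.0977% in hpl-2 I158A and 0.109% and 0.1% in lin-61. Beside it, hpl-2 had 0.446% and 0.104%, and the methyltransferase mutant 0.0807% and 1.62%. With the class above or below 0.2% as a term of the fit, no member was called in hpl-2 I158A against N2 or against lin-61 hpl-2, while 1.51% and 3.68% of all genes were called lower. Only hpl-2 and the methyltransferase mutant had libraries in both classes, so their replicates alone set the class term. In both comparisons class and genotype coincide in the compared libraries, and their parts cannot be told apart. In that fit the log2 fold changes against N2 were -1.56 for unc-13, -1.54 for ric-4 and -1.50 for unc-10, and that of unc-104 shrank from -1.44 to -0.76. Of the members not called, snt-1 went from -1.73 to -0.40 and unc-64 from -0.66 to -0.13. Against lin-61 hpl-2 unc-104 went from -1.70 to -1.03. Among the 6 libraries below 0.2% alone, unc-13, unc-10, unc-31, unc-104 and ric-4 were lower in hpl-2 I158A than in lin-61, and the same 5 were lower than in the single hpl-2 library and than in the single library of the methyltransferase mutant there, with snb-1 higher than in the latter. A single library was assumed to vary like the others, and 15.1%, 15.6% and 18.2% of all genes were called lower in these 3 comparisons. Against lin-61 the log2 fold changes, the same as with all 12 libraries, were -1.81 for unc-13, -1.87 for unc-31, -1.42 for ric-4, -1.16 for unc-10 and -0.96 for unc-104.

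Exon length moved with the fold changes as well. In hpl-2 I158A against N2, 0.829% of the 3138 protein-coding genes tested with up to 1 kb of exons were called lower, 1.84% of those with 1 to 2 kb, 6.1% with 2 to 5 kb, 18.5% of the 324 genes with 5 to 10 kb and 43.1% of the 51 genes above 10 kb. The median log2 fold change went from 0.22 in the shortest class to -1.05 in the longest. Of the members, unc-13 (6864 bases of exon), unc-104 (5514) and unc-31 (5237) fell in the class of 5 to 10 kb, whose median was -0.32 and whose lower quartile was -0.94; the 3 genes, at -2.05, -1.44 and -1.75, lay below that quartile. With 1239 and 1925 bases of exon, ric-4 and snt-1 are short in exons, and at -1.80 and -1.73 they lay below the lower quartile of their class, -0.37. By gene span, with introns, they cover 9184 and 5471 bases. The share of protein-coding genes called lower also rose with span, from 0.718% up to 1 kb to 6.09% at 5 to 10 kb and 8.96% above 10 kb. In order of span, unc-13, unc-104, unc-31, ric-4 and unc-10 were the longest members, and unc-18 and snb-1 the shortest. The shortest member, snb-1 (807 bases), was inside the quartiles of its class. After a smooth relation to gene span and exon length had been removed from each library, 4 members were called lower in the point mutant against N2: unc-13 (-1.80 on the log2 scale), unc-31, unc-104 and ric-4, with unc-10 no longer called (-1.09) and unc-31 called in its place. In that fit 5.22% of all genes were called lower. Exon length also moved with the calls in the other comparisons of hpl-2 I158A. Of protein-coding genes with 5 to 10 kb of exons, 17.3% were called lower against hpl-2 and 18.8% against lin-61 hpl-2. In that class 31.8% were called lower against the methyltransferase mutant and 1.23% against lin-61. Among genes with up to 1 kb of exons these shares were 1.91%, 2.93%, 2.23% and 0.0319%, in the same order.

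**Figure D3:**
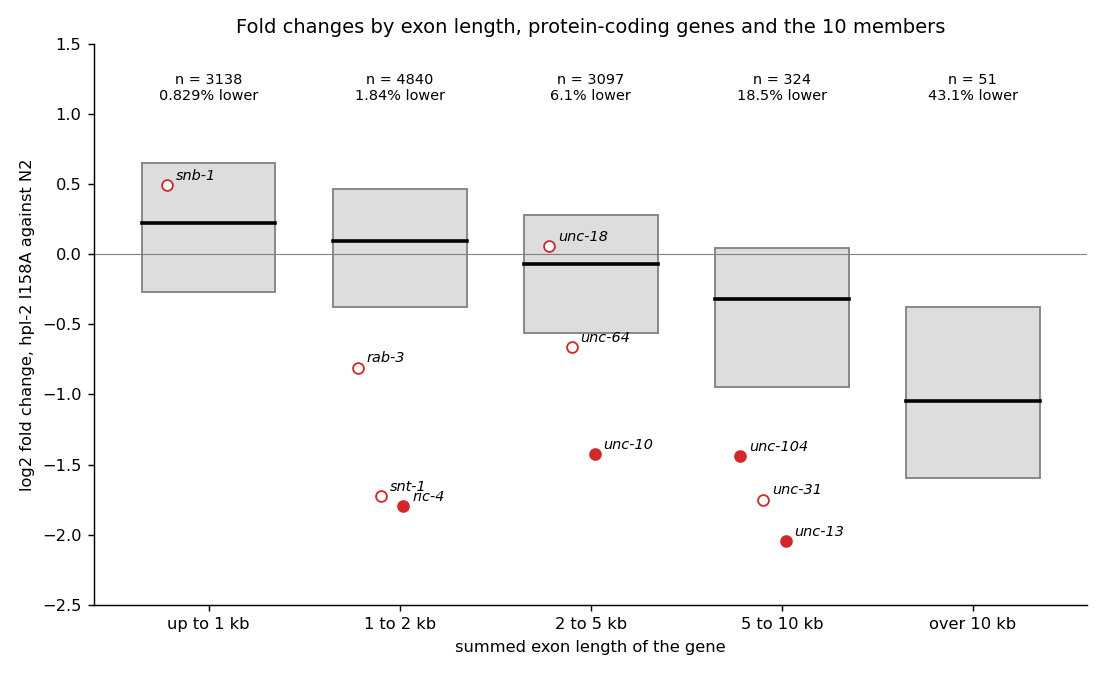
Log2 fold changes of hpl-2 I158A against N2 by summed exon length of the gene. Grey boxes span the quartiles and black bars the median of all protein-coding genes tested in a length class, with their number and the share called lower above; red points are the 10 members, filled where the limma adjusted p was under 0.05. The medians fall from 0.22 to -1.05 with length, and 8 members lie below the lower quartile of their class; snb-1 and unc-18 lie inside the boxes.

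Markers of cell types gave the following levels beside these results. Of 10 genes listed as general neuron markers, all had reads in all 12 libraries. Their summed normalised counts were 2776 and 2953 for hpl-2 I158A and 2571 and 2692 for N2. Such a sum follows its most abundant genes, and the list holds the tubulin gene tbb-1, so neuron content was not tested by it. Markers that are also on the synaptic and neuronal lists below had log2 fold changes from -0.27 (egl-3) to 0.68 (egl-21). Of the 9 tested, none was called in hpl-2 I158A against N2. None of the tested markers of glia (6), body wall muscle (12), epidermis (12) or intestine (8) was called either, at summed counts of 984 to 1006, 10009 to 10604, 36375 to 36740 and 1309 to 1346 in hpl-2 I158A, and 537 to 830, 7548 to 12026, 27450 to 35426 and 958 to 1722 in N2. Of 8 pharynx markers, tni-4 fell (summed counts 811 to 825, against 802 to 1056). Germline and oocyte markers summed to 6367 and 6503 for hpl-2 I158A and to 2274 and 3511 for N2, and 6 of the 12 rose (pgl-1, mex-5, egg-1, puf-5, cey-2 and cey-3), where 0.908% of all genes did. Sperm markers summed to 2.04 to 18 and yolk protein genes to 14.5 to 40.9 over all libraries. No marker on any of these lists was at 0 in every library. The part of this difference in germline and oocyte markers in the lower members was not tested. The labels give late-stage embryos without an age in hours, and whether the strains matched in stage was not tested.

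Among other synaptic and neuronal genes few were called, and those fell on both sides of 0. Of 164 genes in 7 lists, 160 were in the table and 146 were tested. In hpl-2 I158A against N2, 7 of these fell, 2 rose and 137 were not called, where 3.09% and 0.908% of all genes were called lower and higher. The medians of the 7 lists lay between -0.18 and 0.24 on the log2 scale, beside 0.03 over all genes and -1.43 over the 10 members. Members and lists were chosen with earlier results of these data known and were not matched for exon length, so this contrast is a description only.

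Among 27 regulators of priming and fusion none fell and 2 rose. The syntaxin gene syx-4, needed for membrane fusion in early embryonic cell division, went from 39.1 ± 1.93 to 110.8 ± 17.7 normalised counts (SD, n = 2; log2 fold change 1.47, limma adjusted p = 0.0162). The Gq alpha subunit gene egl-30, which promotes transmitter release, went from 218 ± 31 to 466 ± 49.4 (log2 fold change 1.09, limma adjusted p = 0.0434). Of 24 genes of the active zone and of synapse assembly, 4 fell. These were the neurexin gene nrx-1 (-1.47), the liprin gene syd-2 (-1.37, from 424 ± 98.9 to 161 ± 7.61), the L-type calcium channel gene egl-19 (-1.22), which also acts in muscle, and the active zone gene cla-1 (-1.21). The limma adjusted p was close to the threshold for nrx-1 (0.0434), egl-19 (0.0476) and cla-1 (0.0427). In vesicle endocytosis 2 of 14 fell, the stonin gene unc-41 (-1.80, from 145 ± 18.4 to 41.2 ± 6.54, limma adjusted p = 0.00540) and the intersectin gene itsn-1 (-0.83). Of 28 axonal transport genes 1 fell, dnc-1, which encodes the large subunit of dynactin (-1.62, from 639 ± 10.8 to 207 ± 11.4, limma adjusted p = 0.00436). The list genes called lower had from 3600 (itsn-1) to 27088 (cla-1) bases of exon. In those length classes 6.1% to 43.1% of protein-coding genes were called lower. Over the alternative fits their log2 fold changes stayed below 0, but that of cla-1 ranged from -1.56 to -0.12. No gene was called among 15 dense core vesicle genes, 19 genes of transmitter synthesis and vesicle loading, or 19 neuron identity factors, where 1, 3 and 1 had an unadjusted limma p under 0.05, as had 2928 of the 14640 genes tested.

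**Figure D4:**
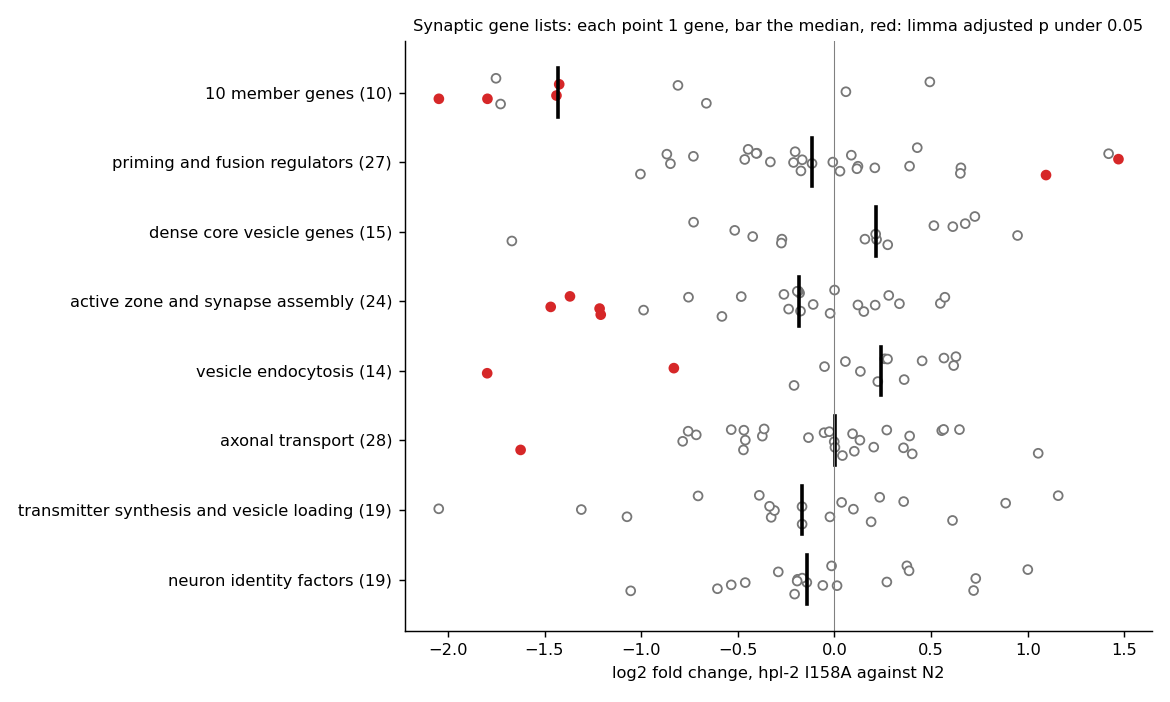
Log2 fold changes of hpl-2 I158A against N2 for the 10 members and for the tested genes of 7 lists of other synaptic and neuronal genes (number of genes in brackets). Points are genes, red where the limma adjusted p was under 0.05, and black bars are medians; the members' median is -1.43 and those of the lists lie between -0.18 and 0.24.

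In the remaining comparisons with hpl-2 I158A, the counts over the 146 genes were 12 lower and 3 higher against hpl-2, 1 lower against lin-61, 10 lower and 6 higher against lin-61 hpl-2, and 14 lower and 3 higher against the methyltransferase mutant. As shares, 8.22%, 0.685%, 6.85% and 9.59% of the list genes were lower, beside 4.25%, 0.198%, 5.79% and 6.89% of all genes. The higher ones were 2.05%, 0%, 4.11% and 2.05% of the list genes, beside 3.59%, 0.0273%, 2.24% and 4.21% of all genes. The largest against hpl-2 were unc-41 (-2.20), the tyrosine hydroxylase gene cat-2 (-2.05) and cla-1 (-1.77). The gene called against lin-61 was unc-41 (-1.95). Against lin-61 hpl-2 they were the dense core vesicle gene cccp-1 (-2.64), the serotonin transporter gene mod-5 (-2.23) and egl-30 (1.77), and against the methyltransferase mutant cccp-1 (-2.99), the acetylcholine receptor chaperone gene ric-3 (-2.37) and unc-41 (-2.08). In hpl-2 I158A, cat-2 was at 3.85 and 6.11 normalised counts and cccp-1 at 2.89 and 8.15. Their fold changes, with standard errors of 0.542 and 0.538, therefore rest on few reads. Elsewhere, the scaffold gene magu-2 was higher in hpl-2 than in N2 (1.15), the active zone gene elks-1 (0.82) and itsn-1 (0.70) were higher in the methyltransferase mutant than in hpl-2, and the lin-61 by hpl-2 interaction term was negative for egl-30 (-2.03) and magu-2 (-1.89), all on the log2 scale.

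Across the 6 genotype means, the genes most like each called member were found among 6095 protein-coding genes with a mean of at least 50 normalised counts, by Pearson correlation of log2 values. They were ttbk-7 (0.997), tni-4 (0.995) and nrx-1 (0.991) for unc-13, W05H12.1 (0.990), C05D10.4 (0.988) and osm-1 (0.983) for unc-10, bicd-1 (0.999), magu-4 (0.995) and gldi-4 (0.994) for unc-104, and ufl-1 (0.996), popl-1 (0.990) and ltd-1 (0.990) for ric-4. With 6 points from shared libraries, chosen as the highest over the candidates, these values are a description only. In hpl-2 I158A against N2 these 12 genes had log2 fold changes from -1.78 for bicd-1 to -0.64 for ufl-1.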

How the data were processed

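One deposited table gives each library's normalised counts, a signal with no values below 0. Per the submitters' processing notes, the tools were STAR, featureCounts and DESeq2 and the builds WBcel235 and ce11; no version or option is given in the sources used here. Each deposited signal value was a whole multiple of 1 read (100% at a tolerance of 1e-06), which gave the depth. A second deposited table holds the authors' p-value, adjusted p-value and log2 fold change per gene and pair, per the file headers; its log2 fold changes were turned here to group minus reference. Symbols and positions came from Ensembl 115 on WBcel235 (46817 identifiers matched, 87 not).

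The test was limma-trend (limma 3.58.1, R 4.3.3) on log2(value + 1), with 12 libraries in 1 fit, genotype as the term, 6 residual and 4.73 prior degrees of freedom, and Benjamini-Hochberg adjustment over 14640 genes at 0.05; this scale understates changes of low genes. The script was tested on simulated data. Alternatives used edgeR 4.0.16, DESeq2 1.42.0 and other fits. Members and lists were chosen with earlier results of these data known. Of the other lists' genes, those called in hpl-2 I158A against N2 are named, up to 6 a list, and up to 3 over all lists elsewhere. Intervals and read counts cover these libraries only.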

Additional observations from a re-analysis of the deposited data

How the results depend on the processing

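Pseudocounts of 0.5 and 5, a filter of 50, TMM scaling and a robust fit kept every count of called members within 1.5 times of that reported, and no direction reversed. In hpl-2 I158A against N2 (4 called) the count was 1, unc-13, with no filter on low values or with edgeR, 0 with the mitochondrial share class as a term (with 12 or 11 libraries), and 7 with edgeR on 11 libraries (6 lower, snb-1 higher), which called 21.7% of all genes. Against hpl-2 (5 called) a fit of the 2 genotypes alone called 9, and 42.9% of all genes. Against lin-61 (0 called) it called 5 (27.7% of all genes), DESeq2 2, the class term 1 (unc-13) or 5 on 11 libraries, edgeR on 11 libraries 5, the libraries of low mitochondrial share 5, and the span and exon length correction 2 or 5 on 11 libraries. Against lin-61 hpl-2 (4 called) the fit of 2 genotypes called 7 (and 4101 of 14640 genes), the class term 0 with 12 or 11 libraries, and edgeR and the length correction on 11 libraries 7 each. Against the methyltransferase mutant (7 called) it was 4 with no filter and 0 with 2 genotypes alone (0 of 14640 genes). With 0 called against N2, the length correction on 11 libraries called 1 in hpl-2 (unc-13, higher) and 1 in lin-61 hpl-2 (snb-1, lower), and the class term 1 in the methyltransferase mutant (unc-104, higher). The alternatives with 11 libraries, with low mitochondrial share and with the length correction were chosen after seeing the data. The cause of these differences was not tested.

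Leaving out each library in turn gave 0 to 7 called members in hpl-2 I158A against N2, 0 to 7 against hpl-2, 0 to 5 against lin-61, 0 to 7 against lin-61 hpl-2 and 3 to 8 against the methyltransferase mutant, and against N2 0 in hpl-2, lin-61 and lin-61 hpl-2 and 0 to 3 in the methyltransferase mutant. A genotype left with 1 library was assumed to vary like the others. The highest count in each comparison with hpl-2 I158A came without 1 of the methyltransferase mutant's libraries. Without either library of N2 or of hpl-2 I158A, no member passed in hpl-2 I158A against N2; unc-13 passed in 8 of the 12 fits, and unc-10, unc-104 and ric-4 in 2. With the replicate block, 4 members were called in hpl-2 I158A against N2 and 6 against the methyltransferase mutant, and 470 genes in all against 586 without it for N2. Deviations of same-numbered libraries correlated at -0.0772 to 0.156 over the 15 pairs of genotypes, so the numbers were not taken to pair samples. Members with few reads (snt-1, ric-4, unc-31) are limited by depth, down to 2, 5 and 9 reads.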
